A study of Mus musculus with 37 samples.

Results

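The genes of astrocyte GABA uptake and breakdown, and of the aldehyde steps that join them, were followed in RNA sequencing of cortical astrocytes from mice with and without post-traumatic epilepsy (PTE). The set held 6 genes, Slc6a11, Abat, Aldh5a1, Aldh1a1, Maob and Aldh9a1, chosen by name, and each of the 6 matched 1 of the 21975 Ensembl gene IDs in both tables. Severe controlled cortical impact (CCI), a unilateral contusion of the cortex, was given to male CD1 mice (the labels write the genotype as WT CD31 Injured and WT CD31 Sham), while sham mice had the craniectomy without the impact, and all were fitted with EEG electrodes and recorded for seizures afterwards. Injured mice with seizures were named PTE+ and those without PTE-, so seizure outcome, unlike injury, was observed and not assigned. Astrocytes were taken at 4 months after injury with ACSA-2 MicroBeads, which bind an astrocyte surface antigen, from the ipsilateral (injured) and the contralateral cortex. The ipsilateral cortex gave 5 sham, 10 PTE- and 4 PTE+ libraries and the contralateral cortex 5, 9 and 4, each from 1 mouse, with 20 mice in all and 17 of them measured on both sides. The study states that 1 PTE+ animal was left out for a low correlation value and 1 PTE- animal for missing sequencing data. In the deposited libraries PTE+ mouse 8_17 had only a contralateral library. PTE+ mouse 9_19 and PTE- mouse 9_14 had only an ipsilateral library. All of these mice are among the 20.

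GABA is the main inhibitory transmitter of the cortex, and astrocytes clear part of it from the space around synapses. Slc6a11 encodes the transporter GAT-3, which lies largely on astrocytes. Inside the cell GABA transaminase (Abat) turns GABA into succinic semialdehyde, and succinic semialdehyde dehydrogenase (Aldh5a1) oxidizes this to succinate, which enters the Krebs cycle. Astrocytes can also make GABA from putrescine: monoamine oxidase B (Maob) oxidizes acetylated putrescine, and the aldehyde dehydrogenases Aldh9a1 and Aldh1a1 can oxidize the aminobutyraldehyde of the putrescine route to GABA. The last 3 genes have other substrates too, retinaldehyde among them for Aldh1a1 and amine transmitters for Maob.

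The deposited values were TPM, a transcript level per gene scaled for gene length and to a total of 1000000 in each library. The study gives only an average number of reads per sample. The depth of each library is therefore unknown, and no counting error can be given. Between 15599 and 18534 genes had a TPM above 0 in 36 of the libraries, and 10727 in the ipsilateral library of PTE- mouse 9_14, which also had a median correlation of 0.85 with its own group. Without this library 0 of 6 genes were called in ipsilateral CCI vs. sham, PTE+ vs. PTE- and PTE- vs. sham, as with it, while the share of all tested genes called rose to 3.83%, 1.89% and 3.98%. All 10 astrocyte markers were above 0 in every library and summed to 14209 to 20577 TPM, whereas the 6 neuron markers summed to 34.6 to 659 TPM, the 8 microglia markers to 113 to 522 TPM and the 8 oligodendrocyte markers to 519 to 4451 TPM. The markers of mural cells (vessel wall) summed to 688 to 4722 TPM, with the highest sum in the library of mouse 9_14. Gfap, the intermediate filament gene of reactive astrocytes, was called higher in ipsilateral CCI than sham libraries (log2 fold change 1.18, SE 0.29, limma p = 0.000523, adjusted p = 0.909) and served as a check on the injury label. In bulk RNA a lower level in the astrocytes and a smaller share of the cells that express a gene cannot be told apart.

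Promoter sequence was available for 4 of the 6 genes, from RefSeq on GRCm38.p6, as the 250 bases before and 50 bases after each annotated start. The windows of Slc6a11, the member with the highest level, and of Aldh1a1, the member with the largest difference between PTE+ and PTE- libraries, are shown to set their base composition side by side, on the plus strand and from 5′ to 3′. Capitals mark matches on either strand to the TATA box (TATAAA), the CCAAT box (letters as named), the GC box (GGGCGG), the palindrome of STAT factors (TTCNNNGAA) and the site of AP-1 factors (TGANTCA), which do not overlap each other in these windows.
Slc6a11, chr6:114130991-114131290: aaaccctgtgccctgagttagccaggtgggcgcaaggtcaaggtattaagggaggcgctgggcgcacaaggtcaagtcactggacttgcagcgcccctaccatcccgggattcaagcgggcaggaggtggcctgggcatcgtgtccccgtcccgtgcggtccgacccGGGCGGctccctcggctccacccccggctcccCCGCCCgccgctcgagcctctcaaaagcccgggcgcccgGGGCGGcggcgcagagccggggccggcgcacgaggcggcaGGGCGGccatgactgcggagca
Aldh1a1, upstream start, chr19:20492333-20492632: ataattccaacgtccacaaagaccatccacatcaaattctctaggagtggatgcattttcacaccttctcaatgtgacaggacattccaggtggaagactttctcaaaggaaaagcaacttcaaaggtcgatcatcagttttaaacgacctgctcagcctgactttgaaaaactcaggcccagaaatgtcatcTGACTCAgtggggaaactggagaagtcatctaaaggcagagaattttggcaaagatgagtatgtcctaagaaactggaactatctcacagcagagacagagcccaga
Aldh1a1, downstream start, chr19:20601718-20602017: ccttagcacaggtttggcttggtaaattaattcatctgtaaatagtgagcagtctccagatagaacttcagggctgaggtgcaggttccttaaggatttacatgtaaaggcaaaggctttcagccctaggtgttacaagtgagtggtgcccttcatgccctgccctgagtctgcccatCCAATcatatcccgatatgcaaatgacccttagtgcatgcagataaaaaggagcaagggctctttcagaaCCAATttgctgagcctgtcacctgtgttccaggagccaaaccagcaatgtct
The Slc6a11 window held 72.3% G and C, above 93.5% of 32851 mouse promoters, and 4 matches to GGGCGG, the letters of a GC box, which 35.7% of all promoters contained. The windows of Aldh1a1 held 43.3% and 47.0% G and C, with 1 match to TGANTCA in the upstream window and 2 matches to CCAAT in the downstream window. TGANTCA occurred in 7.81% of all promoters and CCAAT in 37.4%. A match is a description of the letters only. On GRCm38 Slc6a11 spans chr6:114131241-114249952, Abat chr16:8513429-8621568, Aldh5a1 chr13:24907579-24937661 (minus strand), Aldh1a1 chr19:20492715-20643465, Maob chrX:16709282-16817366 (minus strand) and Aldh9a1 chr1:167349991-167368532, all protein coding.

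The 6 genes kept a steep order of levels. Over all 37 libraries Slc6a11 averaged 358 ± 131 TPM (SD), above 98.3% of all genes, Abat 152 ± 43.7, Maob 119 ± 21.0, Aldh9a1 103 ± 19.6, Aldh1a1 43.8 ± 16.4 and Aldh5a1 15.1 ± 5.22 TPM. Slc6a11 exceeded Abat in 37 of 37 libraries, Aldh9a1 exceeded Aldh1a1 in 37, and Aldh1a1 exceeded Aldh5a1 in 37. The neighbours in the middle of the order were closer, since Abat exceeded Maob in 31 of 37 libraries and Maob exceeded Aldh9a1 in 29. On this length-scaled measure the transporter was thus more abundant than the transaminase, and the transaminase more abundant than the dehydrogenase that follows it, in every library.

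None of the 6 genes was called between any of the study's groups in either cortex. A gene was called when the unadjusted p from limma was below 0.05 and the fold change was at least 1.2 on the scale of log2(TPM + 1), and only genes whose mean exceeded 5 TPM in 1 or more of the compared groups were tested. All 6 genes passed that filter in every comparison. In the ipsilateral cortex 0 of 6 were called for CCI vs. sham, where 1.62% of all tested genes were called, and 0 of 6 for PTE+ vs. PTE-, where 0.573% were. For PTE- vs. sham and PTE+ vs. sham, 0 of 6 were called against backgrounds of 1.54% and 1.56%. In the contralateral cortex 0 of 6 were called for CCI vs. sham (background 4.05%), PTE+ vs. PTE- (2.79%), PTE- vs. sham (3.76%) and PTE+ vs. sham (1.97%). At these backgrounds a set of 6 genes has fewer than 1 call on average, and at an unadjusted limma p below 0.05 alone the count was also 0 in all 8 comparisons. No gene of the whole table passed an adjusted p of 0.05 in these 8 comparisons.

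**Figure D1:**
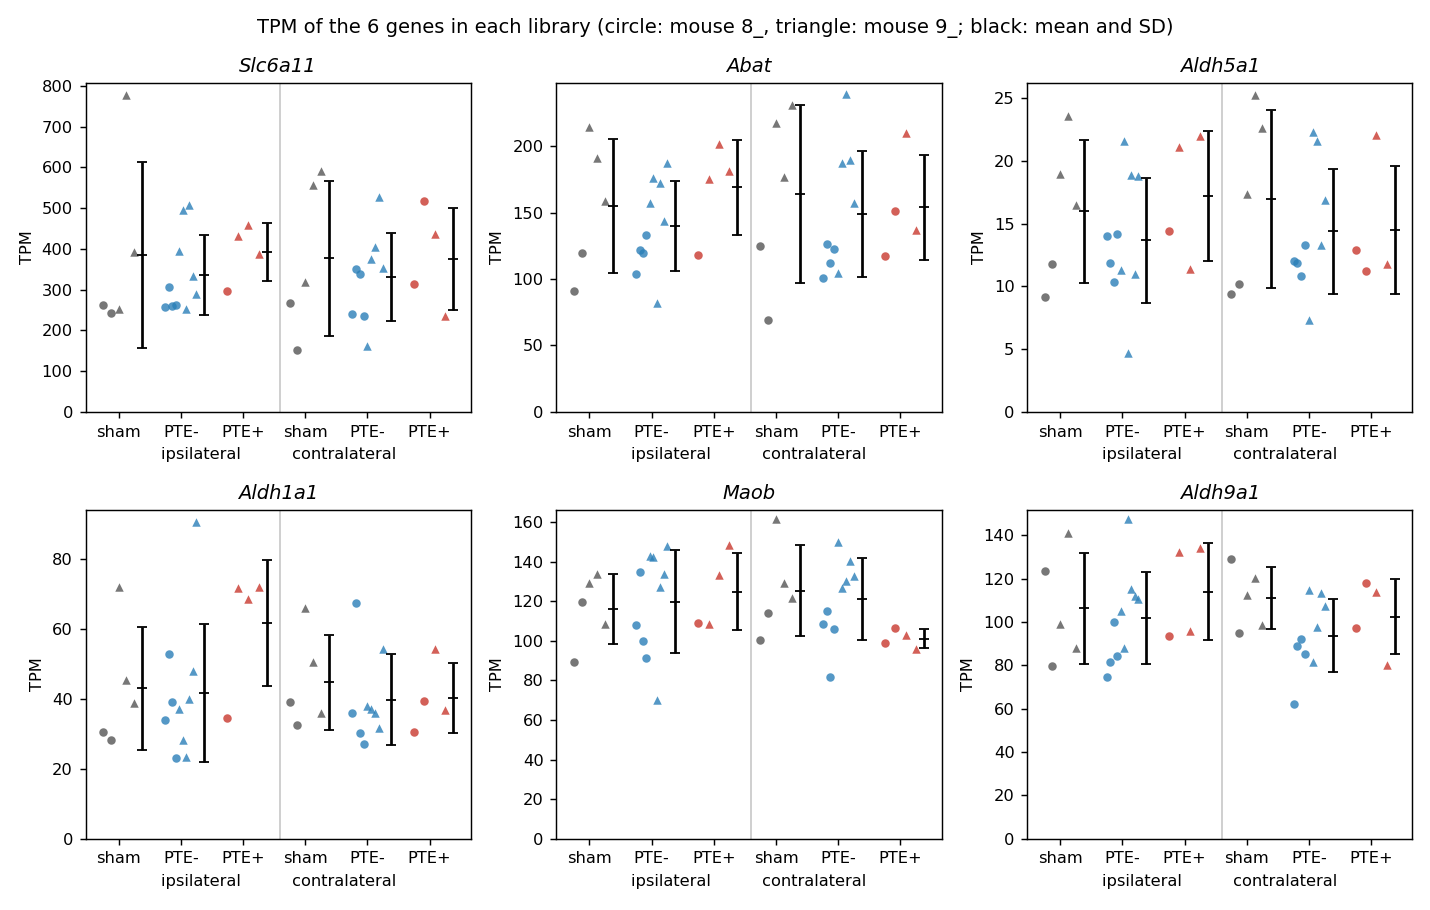
TPM (vertical axis, from 0) of each of the 6 genes in every library, grouped by cortex and by sham, PTE- and PTE+. Circles are mice whose name starts with 8_, triangles mice whose name starts with 9_, and the black bars are the mean and SD. The groups overlap in every panel, while triangles lie mostly above circles for Abat.

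Slc6a11, the GABA transporter, varied more within the sham group than between groups. In the ipsilateral cortex the 5 sham libraries stood at 242, 253, 261, 391 and 777 TPM, the 10 PTE- libraries ranged from 252 to 507 TPM with a median of 298, and the 4 PTE+ libraries stood at 297, 387, 431 and 459 TPM. The library at 777 TPM, from sham mouse 9_11, was the highest of the series, and the 3 groups overlapped. The CCI libraries averaged 352 ± 92.2 TPM (SD, n = 14) and the sham libraries 385 ± 227 TPM (SD, n = 5), a log2 fold change of -0.01 (95% interval -0.49 to 0.46, exact permutation p = 0.964). PTE+ against PTE- gave 0.26 (95% interval -0.17 to 0.68, exact permutation p = 0.249), and the median of all tested genes in that comparison was itself 0.12. Against sham, PTE+ libraries differed by 0.17 (limma p = 0.593). Among the alternatives run this was called only without sham mouse 9_11 (0.46, limma p = 0.0261, adjusted p = 0.493). In that fit the calls over all genes rose from 163 to 1038.

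The contralateral cortex gave the same lack of separation for Slc6a11. Sham libraries stood at 151, 267, 320, 556 and 590 TPM, PTE- libraries ranged from 161 to 527 TPM with a median of 350, and PTE+ libraries stood at 237, 313, 438 and 517 TPM. The log2 fold change of CCI vs. sham was -0.03 (95% interval -0.61 to 0.55), and that of PTE+ vs. PTE- was 0.19 (95% interval -0.37 to 0.75). In fold these intervals ran from 0.655 to 1.46 for injury and from 0.773 to 1.69 for seizure outcome, and changes within them are not excluded on that side.

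Abat and Aldh5a1, the consecutive enzymes of GABA breakdown, were also not called between groups, with intervals that leave room for changes either way. Abat in the ipsilateral cortex stood at 91.1, 120, 159, 191 and 215 TPM in sham, between 81.9 and 187 TPM (median 139) in PTE- and at 118, 175, 181 and 202 TPM in PTE+ libraries. The groups overlapped, with the lowest Abat value in the library of PTE- mouse 9_14. Its log2 fold change was -0.04 for CCI vs. sham (95% interval -0.46 to 0.37) and 0.29 for PTE+ vs. PTE- (95% interval -0.14 to 0.71, exact permutation p = 0.207), the latter becoming 0.21 without that library. In the contralateral cortex Abat ranged from 69.0 to 231 TPM in sham, from 101 to 239 TPM in PTE- and from 118 to 210 TPM in PTE+ libraries, and its log2 fold changes there lay between -0.07 and 0.07. Aldh5a1 averaged 16 ± 5.72 TPM in ipsilateral sham (SD, n = 5), 13.7 ± 4.99 in PTE- (n = 10) and 17.2 ± 5.17 in PTE+ (n = 4) libraries, and 17 ± 7.13, 14.4 ± 4.97 and 14.5 ± 5.07 TPM in the contralateral cortex (n = 5, 9 and 4). Its ipsilateral PTE+ vs. PTE- difference of 0.35 on the log2 scale (95% interval -0.32 to 1.03) became 0.21 without mouse 9_14, in which Aldh5a1 was 4.71 TPM.

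Aldh1a1, the retinaldehyde and aminobutyraldehyde dehydrogenase, had the largest difference between seizure outcomes among the 6 genes, though it was not called. Ipsilateral sham libraries stood at 28.1, 30.7, 38.8, 45.4 and 71.9 TPM, PTE- libraries ranged from 23.1 to 90.7 TPM with a median of 38.1, and PTE+ libraries stood at 34.6, 68.7, 71.7 and 71.9 TPM. Of the PTE+ libraries 3 of 4 lay above the PTE- median, and the fourth, from mouse 8_10, lay below it, so the groups overlapped. The means were 61.7 ± 18.1 TPM in PTE+ (SD, n = 4) and 41.6 ± 19.8 TPM in PTE- (SD, n = 10), a log2 fold change of 0.61 (SE 0.31, 95% interval -0.05 to 1.27, limma p = 0.0661, adjusted p = 0.977, exact permutation p = 0.0919). Against sham the difference was 0.53 (SE 0.29, limma p = 0.0922, adjusted p = 1, exact permutation p = 0.175).

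The Aldh1a1 difference depended on single mice. Without PTE+ mouse 8_10 it was 0.86 for PTE+ vs. PTE- (limma p = 0.0175, adjusted p = 0.938), without PTE- mouse 9_20, the library at 90.7 TPM, it was 0.75 (limma p = 0.0103, adjusted p = 0.941), and without mouse 9_14 it was 0.53 (limma p = 0.0798). Against sham it was called without PTE+ mouse 8_10 (0.79, limma p = 0.014) and without sham mouse 9_10 (0.74, limma p = 0.0156). Among mice whose names start with 9_ the 3 PTE+ and 6 PTE- libraries differed by 0.79, whereas the lone 8_ PTE+ library and the 4 8_ PTE- libraries differed by -0.04. In the contralateral cortex the same contrast was 0.04 (95% interval -0.41 to 0.49), with PTE+ libraries at 30.7, 36.7, 39.3 and 54.2 TPM and PTE- libraries from 27.1 to 67.6 TPM. The test of the difference between the sides, in the 3 PTE+ and 9 PTE- mice measured on both, gave 0.40 (SE 0.22, limma p = 0.0863, adjusted p = 0.999, exact permutation p = 0.155), and 0 of 6 genes were called in it, where 2.63% of all tested genes were. That difference, which was not among the planned comparisons, was called for Aldh1a1 without mouse 8_10 (0.56), 9_16 (0.46) or 9_20 (0.48). It fell to 0.20 without PTE+ mouse 9_18. Across the fits without 1 mouse, calls over all genes ran from 119 to 806.

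Maob, the amine oxidase, was tightly grouped in the contralateral PTE+ libraries. These stood at 95.7, 98.7, 103 and 106 TPM, while the contralateral sham libraries stood at 100, 114, 122, 129 and 162 TPM and the PTE- libraries ranged from 81.8 to 150 TPM with a median of 127. All 4 PTE+ libraries lay below the median of sham and below that of PTE-, and the ranges overlapped. The log2 fold change was -0.29 against sham (SE 0.15, 95% interval -0.61 to 0.03, limma p = 0.0689, adjusted p = 0.9997, exact permutation p = 0.0476) and -0.24 against PTE- (SE 0.14, limma p = 0.0978, adjusted p = 0.999, exact permutation p = 0.103). The difference from sham was called without sham mouse 8_15 (-0.37, limma p = 0.026) and that from PTE- without PTE- mouse 8_14 (-0.31, limma p = 0.0146). Among 9_ mice the 2 PTE+ libraries differed from the 5 PTE- libraries by -0.45, while among 8_ mice the difference was 0.01 between 2 and 4 libraries. In the ipsilateral cortex Maob averaged 116 ± 17.9, 120 ± 26.0 and 125 ± 19.5 TPM in sham, PTE- and PTE+ libraries (SD, n = 5, 10 and 4), with PTE+ vs. PTE- at 0.08 (95% interval -0.30 to 0.47), or 0.00 without mouse 9_14.

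Aldh9a1, the aminobutyraldehyde dehydrogenase that also serves carnitine synthesis, spread little, like Maob. Its ipsilateral means were 106 ± 25.6, 102 ± 21.4 and 114 ± 22.3 TPM in sham, PTE- and PTE+ libraries (SD, n = 5, 10 and 4). CCI vs. sham was -0.01 in the ipsilateral cortex (95% interval -0.33 to 0.31) and -0.21 in the contralateral cortex (95% interval -0.49 to 0.05, exact permutation p = 0.119). The contralateral value came with 6 of 13 CCI libraries below every sham library, and PTE- alone differed from sham by -0.26 (limma p = 0.0847, exact permutation p = 0.0874). That difference was -0.44 among 8_ mice (4 and 2 libraries) and -0.11 among 9_ mice (5 and 3). PTE+ vs. PTE- was 0.17 in the ipsilateral cortex (95% interval -0.19 to 0.52), or 0.23 without mouse 9_14, whose library stood at 148 TPM. In the contralateral cortex it was 0.13 (95% interval -0.20 to 0.46).

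**Figure D2:**
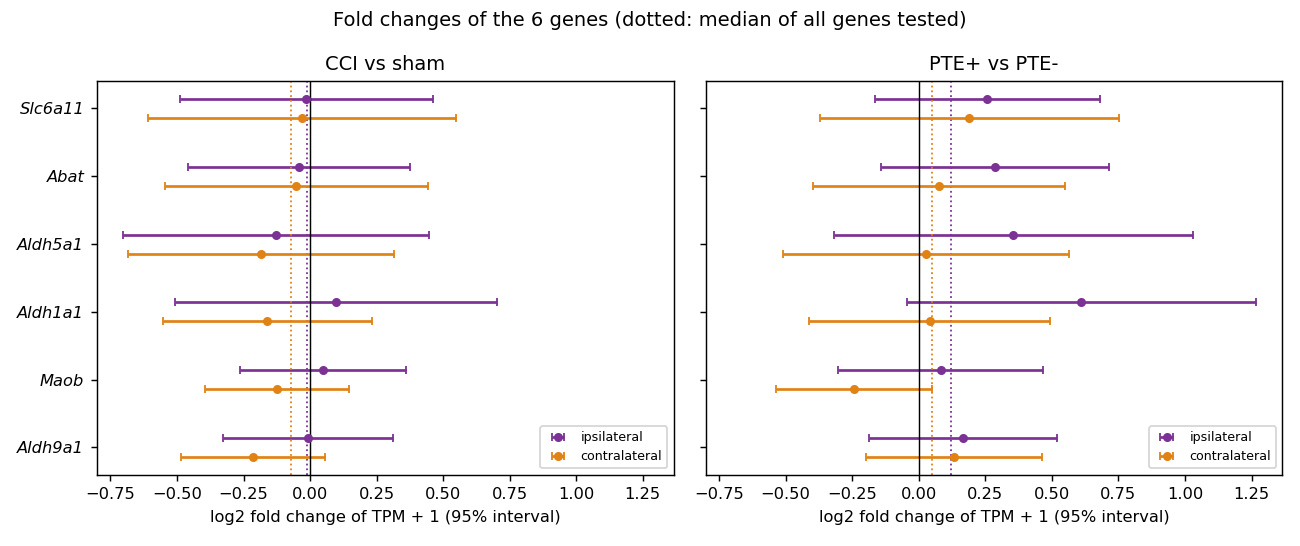
Log2 fold change of TPM + 1 (horizontal axis) with 95% intervals for each gene, CCI vs. sham on the left and PTE+ vs. PTE- on the right, in the ipsilateral and contralateral cortex. Every interval includes 0, and dotted lines mark the median of all genes tested, 0.12 for ipsilateral PTE+ vs. PTE-.

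The precision set the size of change that these data could show. For ipsilateral CCI vs. sham the 95% intervals ran from 0.833-fold to 1.28-fold for Maob and from 0.797-fold to 1.24-fold for Aldh9a1, the narrowest of the set, and from 0.704-fold to 1.63-fold for Aldh1a1, the highest upper bound. The median log2 fold change of the 6 genes was -0.01 there, equal to that of all tested genes. For ipsilateral PTE+ vs. PTE- it was 0.27 against 0.12 for all tested genes, and for contralateral CCI vs. sham -0.14 against -0.07. The 95% intervals of ipsilateral PTE+ vs. PTE- ran from 0.969-fold to 2.41-fold for Aldh1a1 and from 0.802-fold to 2.04-fold for Aldh5a1. For Aldh9a1 that interval was 0.878-fold to 1.43-fold.

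The hemispheres of the same mouse were compared next, as paired values. In sham mice 0 of 6 genes were called between ipsilateral and contralateral cortex, where 9.04% of all tested genes were called, and in CCI mice 0 of 6, where 4.58% were. With 5 sham mice the exact sign-change test cannot give a p below 0.0625. The difference of the hemisphere contrast between CCI and sham mice was also called for 0 of 6 genes, against 6.5% of all tested genes. Its largest values were 0.27 for Aldh1a1 (95% interval -0.12 to 0.66, exact permutation p = 0.188) and 0.20 for Maob (95% interval -0.02 to 0.42, exact permutation p = 0.0575). Maob was higher in the ipsilateral cortex in 7 of 12 CCI mice and in 2 of 5 sham mice.

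Values from the 2 sides of a mouse were closer than values from different mice of the group for every one of the 6 genes. The median absolute difference between sides was 0.12 on the log2 scale for Aldh5a1, against 0.50 between mice of the same group and side, and 0.12 against 0.28 for Aldh9a1. For Maob it was 0.16 against 0.25, for Aldh1a1 0.22 against 0.48, for Abat 0.25 against 0.40 and for Slc6a11 0.34 against 0.57. Between mice of the same group, side and name number (8_ or 9_, described further on) the medians were 0.34 for Aldh5a1, 0.24 for Aldh9a1, 0.49 for Aldh1a1 and 0.47 for Slc6a11, but 0.26 for Abat and 0.15 for Maob, close to the values within a mouse. These medians are descriptions over 17 mice and 98 or 42 pairs of libraries that share mice. The widest gap within a mouse was that of Slc6a11 in PTE- mouse 9_12, 396 TPM in the ipsilateral and 161 TPM in the contralateral cortex.

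**Figure D3:**
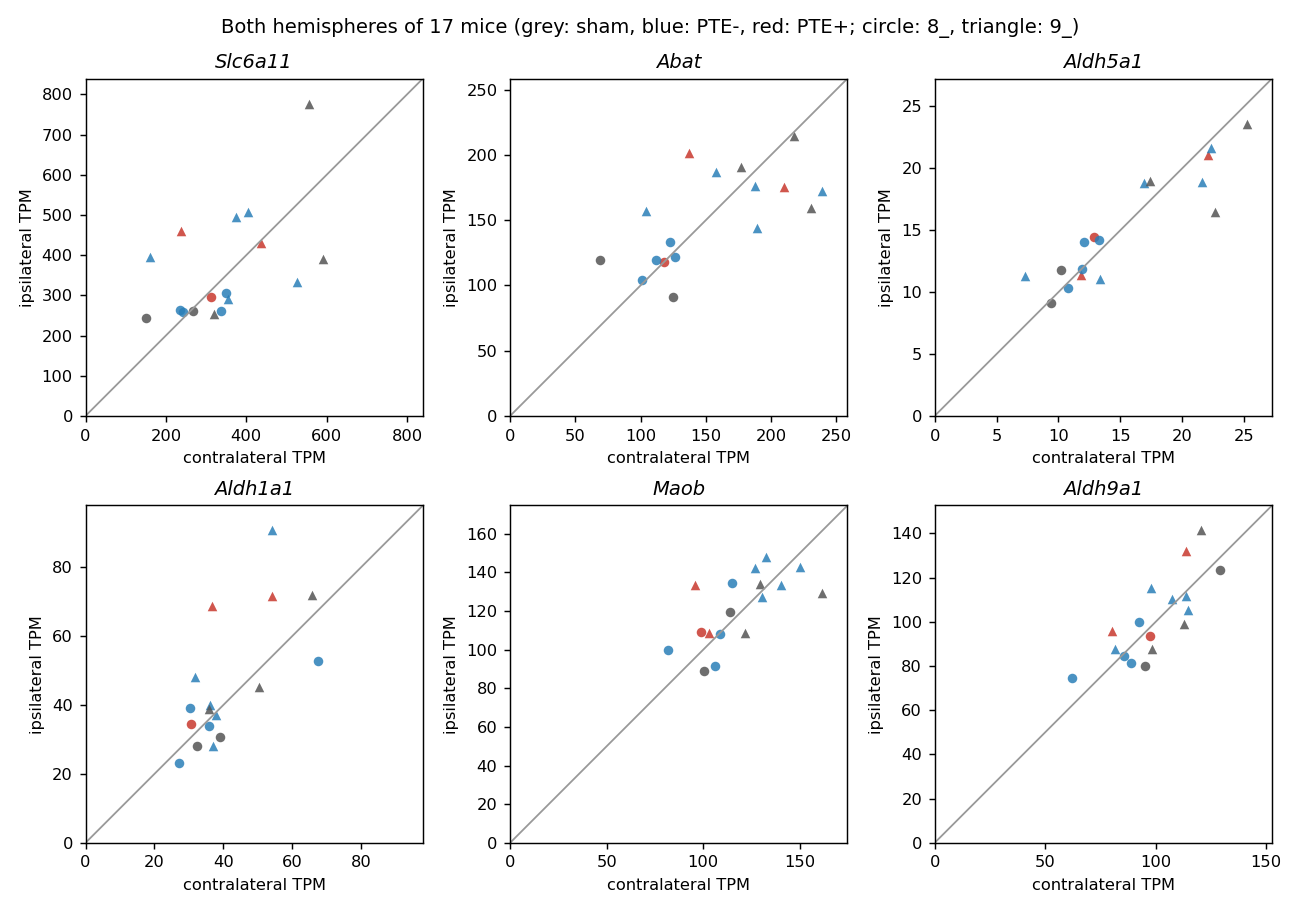
Ipsilateral TPM (vertical axis) against contralateral TPM (horizontal axis) of the 17 mice measured on both sides, with the line of equal values, coloured by group and shaped by the first digit of the mouse name. Aldh5a1 lies closest to the line relative to its spread, and the groups are mixed along it.

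The 6 genes were also compared by mouse name. Each name starts with 8_ or 9_, a number whose meaning the sources do not state, and both numbers occur in every group (2 and 3 ipsilateral sham, 4 and 6 PTE-, 1 and 3 PTE+ libraries). The contrast was added after the data had been seen, in a fit that held the 3 groups fixed. In the ipsilateral cortex 3 of 6 genes were called, all higher in 9_ mice, where 23.7% of all tested genes were called and the median of all genes was 0.11. In the contralateral cortex 3 of 6 were called, also all higher, where 18.7% of all tested genes were called and the median of all genes was 0.12.

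Abat was called on both sides. Its ipsilateral level ranged from 91.1 to 134 TPM with a median of 119 in the 7 libraries of 8_ mice and from 81.9 to 215 TPM with a median of 176 in the 12 of 9_ mice. All 9_ libraries but that of mouse 9_14 lay above every 8_ library. The log2 difference was 0.51 (SE 0.14, limma p = 0.00199, adjusted p = 0.0391, exact permutation p = 0.005) in the ipsilateral and 0.67 (SE 0.16, limma p = 0.000639, adjusted p = 0.0753, exact permutation p = 0.00212) in the contralateral cortex, where 8 of 10 libraries of 9_ mice lay above all 8 of 8_ mice. Without mouse 9_14 the ipsilateral difference was 0.61 (adjusted limma p = 0.00144).

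The other genes called by mouse name were not the same on the 2 sides. Ipsilateral Slc6a11 ranged from 242 to 306 TPM (median 261) in 8_ and from 252 to 777 TPM (median 394) in 9_ libraries, which overlapped at the low end. Slc6a11 was higher in ipsilateral 9_ libraries by 0.54 (SE 0.18, adjusted limma p = 0.0663, exact permutation p = 0.011) and Aldh9a1 by 0.31 (SE 0.12, adjusted limma p = 0.124, exact permutation p = 0.0311). In the contralateral cortex Aldh5a1 was higher by 0.54 (SE 0.19, adjusted limma p = 0.131, exact permutation p = 0.019) and Maob by 0.29 (SE 0.09, adjusted limma p = 0.105, exact permutation p = 0.00159). Whether the size differed between sides was not tested, and Slc6a11 stood at 0.38 in the contralateral and Aldh5a1 at 0.31 in the ipsilateral cortex without being called. Without the library of mouse 9_14 the ipsilateral count rose to 5 of 6, Aldh5a1 (0.45), Aldh1a1 (0.57) and Maob (0.31) being added and Aldh9a1 (0.26) lost, and the share of all tested genes called rose to 38.7%. After each library was centred on its median, 2 of 6 genes (Slc6a11 at 0.35 and Abat at 0.32) were called in the ipsilateral and 1 of 6 (Abat at 0.51) in the contralateral cortex, against 18.8% and 16.9% of all tested genes, and no gene called before the centring changed direction.

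The summed markers also differed by mouse name. Astrocyte markers summed to a median of 15984 TPM in ipsilateral 8_ and 18381 TPM in ipsilateral 9_ libraries, and to 16419 and 17388 TPM in the contralateral cortex. Neuron markers had medians of 375 and 174 TPM in the ipsilateral and 209 and 268 TPM in the contralateral cortex, and oligodendrocyte markers 1934 and 1187 TPM and 1959 and 2273 TPM. For mural markers the medians were 1124 and 1639 TPM in the ipsilateral and 1340 and 1287 TPM in the contralateral cortex. Ependymal markers had 262 and 131 TPM, and 106 and 232 TPM. Their part in the differences of the 6 genes was not tested. With the first digit of the mouse name as a covariate, 0 of 6 genes were called in 7 of the 8 group comparisons, and Aldh1a1 was called for ipsilateral PTE+ vs. sham (0.41, limma p = 0.0447, adjusted p = 0.9999). In these fits 1.9% of all tested genes were called for ipsilateral CCI vs. sham, 0.659% for PTE+ vs. PTE- and 1.83% for PTE- vs. sham. For ipsilateral PTE+ vs. sham, calls over all genes ran from 84 to 1221 across the alternatives that left out no library.

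**Figure D4:**
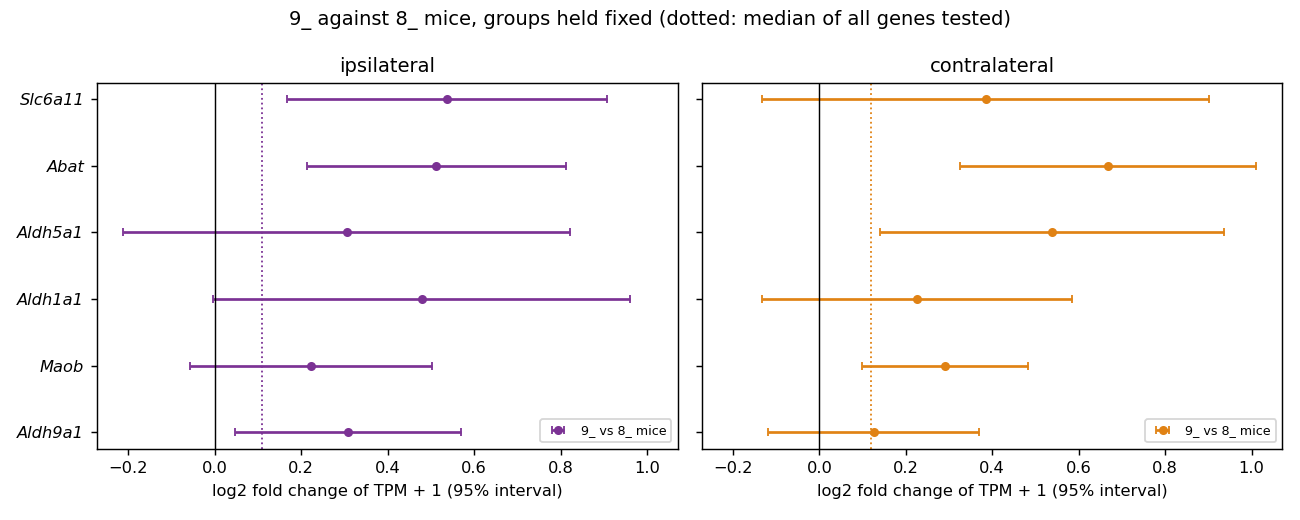
Log2 difference of TPM + 1 between mice named 9_ and 8_ (horizontal axis) with 95% intervals for the 6 genes, ipsilateral on the left and contralateral on the right, the groups held fixed. All 12 points lie above 0 (after median centring 11 do, contralateral Aldh9a1 then being at -0.04), and dotted lines mark the medians of all genes tested, 0.11 and 0.12.

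Levels across libraries were also set beside those of the 10235 genes with a mean above 5 TPM, by Spearman's rho over 37 libraries. Libraries of the same mouse share an animal, and all levels share the scaling to a fixed total, so these are descriptions. Slc6a11 was close to Nlgn3, a neuroligin adhesion gene, with a rho of 0.90 over all libraries, 0.86 in the ipsilateral and 0.95 in the contralateral cortex. Within the 15 libraries of 8_ mice this rho was 0.75, and within the 22 of 9_ mice it was 0.88. Dag1, the dystroglycan gene, stood at 0.89 with Slc6a11 over all libraries, and at 0.89 and 0.86 within the libraries of 8_ and 9_ mice.

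The genes most like each of the other members were not genes of GABA metabolism. Abat was closest to Ahcyl1 (rho 0.93), Scd2 (0.92) and Ckap5 (0.92). Aldh9a1 was closest to Ulk3 and Plcd1 (0.86 each) and Mum1 (0.85), and Aldh5a1 to Ulk2 (0.85), Mib1 and Miga1 (0.82 each). Maob and Aldh1a1 had no gene as close, with highest values of 0.77 (Rab18) and 0.75 (Lrch1). Several of these fell within mice of 1 name number: Maob with Rab18 stood at 0.37 in 8_ and 0.60 in 9_ libraries. Among the members themselves Abat and Aldh5a1 had the highest rho, 0.74, which was 0.19 in 8_ and 0.61 in 9_ libraries, and Slc6a11 and Abat had 0.69, or 0.48 and 0.44.

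Of 22 other genes that make, carry, release or dispose of GABA and its precursors, 15 were expressed above the filter. These genes were listed with earlier results of these data known, so their calls are descriptions. Odc1 and Sat1 were called between groups, and Gad1 only in a hemisphere contrast. In the ipsilateral cortex 1 of 15 was called in CCI vs. sham (1.62% of all tested genes), PTE+ vs. PTE- (0.573%) and PTE- vs. sham (1.54%) and 0 of 15 in PTE+ vs. sham, and the contralateral cortex gave 0 of 15 in all 4. Odc1, ornithine decarboxylase, which makes putrescine, was called higher in ipsilateral CCI than sham libraries. It stood at 37.9, 49.4, 52.0, 52.8 and 64.9 TPM in sham and between 51.7 and 110 TPM (median 68.1) in CCI libraries, so 10 of 14 CCI libraries lay above every sham library. Its log2 fold change was 0.43 (SE 0.14, limma p = 0.00662, adjusted p = 0.9997, exact permutation p = 0.0055), with PTE- vs. sham at 0.46. It was called under all 26 alternatives of the CCI contrast, with values from 0.27 to 0.52. For PTE- vs. sham it was called under 21 of 22 alternatives, but not with array weights.

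The other calls among these genes were less steady. Sat1, which acetylates polyamines on the way to putrescine, stood at 770, 779, 788 and 873 TPM in ipsilateral PTE+ and ranged from 481 to 963 TPM in PTE- libraries. It was higher in PTE+ by 0.35 (SE 0.15, limma p = 0.0323, adjusted p = 0.977, exact permutation p = 0.045) and was called under 16 of 21 alternatives, but not after median centring (0.27), in the fit of all 3 groups, or without PTE+ mouse 8_10 (0.36), 9_17 (0.31) or 9_18 (0.36). Gad1, the glutamate decarboxylase of inhibitory neurons, averaged 7.77 TPM over all libraries. Its hemisphere contrast differed between CCI and sham mice by 0.54 (limma p = 0.0156, adjusted p = 0.709), as did that of Odc1 by 0.37 (limma p = 0.027, adjusted p = 0.709), where 6.5% of all tested genes were called. Each lost its call under quantile normalization and under median centring. Gad1 also lost it without the block for the mouse and without sham mouse 8_15 (0.46) or 9_9 (0.45), and Odc1 without sham mouse 8_16 (0.27) or 9_10 (0.36). The 4 subunit genes of succinate dehydrogenase, downstream of Aldh5a1, ranged in mean from 124 TPM (Sdhc) to 508 TPM (Sdhb), and 0 of 4 were called between groups. By mouse name 1 of the 15 pathway genes was called in the ipsilateral and 2 in the contralateral cortex, against 23.7% and 18.7% of all tested genes.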

How the data were processed

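Total RNA of ACSA-2 isolated cortical astrocytes was made into SMART-Seq v4 libraries. Per the labels and the study's methods, the authors trimmed reads with Trim Galore 0.6.4, mapped them to mm10 with Bowtie2 2.4.1, estimated expression with RSEM 1.2.28 and deposited TPM values, 1 table per cortex. The annotation release is not given in the sources used here, and DESeq2 1.36.0 in the notes served the authors' own comparisons, which were not used. The TPM tables were joined by Ensembl ID, and 21856 of 21975 IDs were paired with a symbol. TPM keep no depth, so a count test was not possible.

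Values were tested as log2(TPM + 1) with limma 3.58.1 (R 4.3.3), moderated with a mean trend, on genes whose mean exceeded 5 TPM in 1 or more compared groups. A call was p below 0.05 with a fold of at least 1.2, and Benjamini-Hochberg adjusted p-values over all genes tested stand beside it. Fold changes on this scale understate changes of low genes. Each hemisphere contrast had the mouse as a block, since titles name the mouse. The 2 sides' deviations from group means correlated at a median of 0.412 over 17 mice. Permutation tests were two-sided and exact, over all arrangements of libraries or mice. Members and gene lists were chosen with earlier results of these data known. All 6 members were named with their values, with the pathway genes called between groups or in a hemisphere contrast and up to 3 genes of highest Spearman's rho per member. Results of 1 gene are not reported here. The fits were tested on simulated data. Positions are from GENCODE on GRCm38 and promoters from RefSeq GRCm38.p6. Alternatives were a pseudocount of 0.1, no filter, quantile normalization, median centring, array weights, the mouse name number as covariate, a fit of all 3 groups, no block, and each library or mouse left out. Samples of a group are separate mice.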

Additional observations from a re-analysis of the deposited data

Results flagged for a closer look

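Among 36 groups of 4 to 10 libraries, of which chance flags about 1 in 20, 2 held a library far from the others of its group on the log2 scale. Aldh5a1 stood at 4.71 TPM in the ipsilateral library of PTE- mouse 9_14, the library with the fewest genes above 0 TPM, and the gap to the next library was 0.5 of the range of its group. Aldh1a1 stood at 34.6 TPM in the ipsilateral library of PTE+ mouse 8_10, with a gap of 0.936 of the range of the 4 PTE+ libraries.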

How the results depend on the processing

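Of 1836 values of the 6 genes under the alternatives, 1677 kept their sign and their side of the call threshold, 28 became calls, 9 lost a call, and 122 that were not called in either fit changed sign, the largest of these being 0.20 in size in the fit reported. The sign changes of these genes and of Odc1, Sat1 and Gad1 are given last. With array weights 2 of 6 genes were called for ipsilateral PTE+ vs. PTE- (Abat, Aldh1a1), 1 for ipsilateral PTE+ vs. sham (Aldh1a1), 1 for contralateral PTE+ vs. sham (Maob), 5 by ipsilateral and 4 by contralateral mouse name (Slc6a11 being added at 0.47), while the share of all tested genes called was 4.21%, 11.7%, 10.5%, 42.0% and 26.0% in these comparisons. The covariate for the mouse name gave 1 of 6 for ipsilateral PTE+ vs. sham, and median centring 1 of 6 by contralateral mouse name. Across the alternatives that left out no library, calls over all genes ran from 84 to 1221 in the former comparison and from 1405 to 2777 in the latter. Leaving out each library or mouse gave 0 to 1 of 6 for ipsilateral PTE+ vs. PTE-, ipsilateral PTE+ vs. sham, contralateral PTE+ vs. PTE-, contralateral PTE+ vs. sham and the hemisphere difference between PTE+ and PTE- mice, and 2 to 5 of 6 ipsilateral and 2 to 4 of 6 contralateral by mouse name. Calls over all genes in these fits ran, in the same order, from 23 to 197, 95 to 1038, 201 to 489, 104 to 601 and 119 to 806. By mouse name they ran from 2060 to 4088 ipsilateral and from 1359 to 2673 contralateral. The cause of these changes was not tested. Without the replicate block 0 of 6 genes were called in each hemisphere contrast, as with it. Counts over all genes moved more: ipsilateral CCI vs. sham called 169 genes, 843 with array weights and 399 without mouse 9_14, and ipsilateral PTE+ vs. PTE- called 60, 441 and 197. Removing the block took the calls from 967 to 315 in sham and from 490 to 233 in CCI mice. Small groups, 4 PTE+ libraries a side, limit the precision.

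The following are log2 differences that had the opposite sign, before rounding, in the fit reported, or, where 1 library or mouse was left out, the lowest and highest values of a gene whose sign changed in at least 1 such fit. No value that changed sign was called in either fit. For ipsilateral CCI vs. sham, array weights gave 0.20 for Slc6a11, 0.16 for Abat, 0.05 for Aldh5a1, 0.06 for Aldh9a1, 0.08 for Sat1 and 0.15 for Gad1, and quantile normalization gave 0.13 for Gad1. The fits without 1 library spanned -0.14 to 0.28 for Slc6a11, -0.22 to 0.09 for Abat, -0.30 to 0.02 for Aldh5a1, -0.03 to 0.30 for Aldh1a1, -0.04 to 0.11 for Maob, -0.10 to 0.10 for Aldh9a1, -0.16 to 0.12 for Sat1 and -0.16 to 0.19 for Gad1. For ipsilateral PTE+ vs. PTE-, array weights gave 0.00 for Maob. Without 1 library the values ran from -0.01 to 0.14 for Maob. For ipsilateral PTE- vs. sham, array weights gave 0.10 for Slc6a11, 0.05 for Abat, 0.09 for Aldh1a1 and 0.07 for Gad1, and quantile normalization gave 0.09 for Gad1. Omitting 1 library there gave -0.21 to 0.21 for Slc6a11, -0.30 to 0.01 for Abat, -0.21 to 0.13 for Aldh1a1, -0.07 to 0.11 for Maob, -0.15 to 0.05 for Aldh9a1, -0.26 to 0.02 for Sat1 and -0.30 to 0.14 for Gad1. For contralateral CCI vs. sham, median centring gave 0.07 for Slc6a11, 0.05 for Abat and 0.09 for Odc1, quantile normalization gave 0.05 for Odc1, and the mouse name as a covariate gave 0.00 for Odc1. The fits without 1 library spanned -0.32 to 0.17 for Slc6a11, -0.33 to 0.10 for Abat and -0.06 to 0.06 for Odc1. For contralateral PTE+ vs. PTE-, array weights gave 0.00 for Slc6a11, -0.17 for Abat, -0.11 for Aldh5a1, -0.21 for Aldh1a1 and -0.04 for Odc1, quantile normalization gave -0.06 for Aldh5a1 and 0.00 for Aldh1a1, and median centring gave -0.03 for Aldh5a1, -0.02 for Aldh1a1 and -0.01 for Odc1. Without 1 library the values ran from -0.08 to 0.19 for Abat, -0.18 to 0.12 for Aldh5a1, -0.11 to 0.16 for Aldh1a1 and -0.04 to 0.13 for Odc1. For contralateral PTE- vs. sham, median centring gave 0.03 for Slc6a11, 0.04 for Abat, 0.07 for Maob and 0.10 for Odc1, and quantile normalization gave 0.04 for Odc1. Omitting 1 library there gave -0.38 to 0.11 for Slc6a11, -0.35 to 0.08 for Abat, -0.12 to 0.05 for Maob, -0.07 to 0.04 for Odc1 and -0.02 to 0.12 for Sat1. For contralateral PTE+ vs. sham, array weights gave -0.13 for Slc6a11, -0.35 for Abat and -0.06 for Odc1, and quantile normalization gave -0.03 for Abat. The fits without 1 library spanned -0.19 to 0.30 for Slc6a11, -0.28 to 0.15 for Abat, -0.28 to 0.02 for Aldh1a1 and -0.06 to 0.10 for Odc1. For ipsilateral vs. contralateral in sham, array weights gave -0.09 for Slc6a11, median centring gave 0.10 for Abat, 0.07 for Aldh5a1, 0.03 for Aldh1a1, 0.01 for Maob, 0.03 for Aldh9a1 and 0.05 for Sat1, and quantile normalization gave 0.08 for Aldh5a1. Without 1 mouse the values ran from -0.12 to 0.20 for Slc6a11, -0.22 to 0.11 for Abat, -0.11 to 0.04 for Aldh5a1 and -0.16 to 0.03 for Sat1. For ipsilateral vs. contralateral in CCI, array weights gave 0.00 for Abat. Omitting 1 mouse there gave -0.02 to 0.08 for Abat and -0.01 to 0.07 for Aldh5a1. For the hemisphere difference of CCI minus sham mice, median centring gave -0.02 for Slc6a11, -0.07 for Abat and -0.02 for Aldh5a1, and quantile normalization gave -0.04 for Aldh5a1. The fits without 1 mouse spanned -0.06 to 0.25 for Slc6a11, -0.07 to 0.25 for Abat, 0.00 to 0.16 for Aldh5a1 and -0.17 to 0.02 for Sat1. For the hemisphere difference of PTE+ minus PTE- mice, quantile normalization gave 0.03 for Aldh5a1, median centring gave 0.00 for Aldh5a1, and array weights gave 0.00 for Aldh5a1. Without 1 mouse the values ran from -0.13 to 0.38 for Slc6a11, -0.14 to 0.27 for Abat, -0.11 to 0.03 for Aldh5a1, -0.39 to 0.03 for Odc1 and -0.06 to 0.17 for Sat1. For ipsilateral 9_ vs. 8_ mice, quantile normalization gave -0.03 for Odc1, median centring gave -0.09 for Odc1 and -0.14 for Sat1, and array weights gave -0.03 for Odc1 and 0.05 for Gad1. Omitting 1 library there gave -0.01 to 0.13 for Sat1 and -0.23 to 0.18 for Gad1. For contralateral 9_ vs. 8_ mice, median centring gave -0.04 for Aldh9a1. For ipsilateral PTE+ vs. sham, omitting 1 library gave -0.01 to 0.32 for Abat and -0.04 to 0.30 for Aldh5a1.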
